A study of Homo sapiens with 6 samples.

Results

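The zinc finger genes of human chromosome 19 were examined in DLD-1 cells, a colorectal adenocarcinoma line, in which AHR had been knocked down. AHR is the aryl hydrocarbon receptor, which enters the nucleus when it binds a ligand and activates detoxification genes. Members were selected on their summed counts: they were the protein-coding genes named ZNF and a number that lie on chromosome 19 in GENCODE 29 and held at least 60 counts over the 6 libraries. Of 247 chromosome 19 candidates, 162 reached that sum, out of 60483 gene IDs in each deposited table. The sum that selected them takes in both groups alike, so a gene at a low level can reach it through the group where it is higher. It is given only as a description. RNA was sequenced from 3 libraries of DLD-1 cells transfected with AHR siRNA and 3 libraries of the same line transfected with control siRNA, to find genes under AHR control. Neither a genotype difference nor another agent separates the groups in the labels. How long after transfection the cells were taken, which siRNA was used, how RNA was selected and whether libraries kept strand is not given in the sources. Since the replicates are not stated to be separate cultures, p-values reflect library-to-library spread, which may be technical alone.

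Most genes of this family encode proteins that read DNA with long arrays of C2H2 fingers, each a small zinc-bound fold. Many also carry a KRAB domain at the amino end, which binds the co-repressor TRIM28 (KAP1); TRIM28 brings the methyltransferase SETDB1, HP1 proteins and deacetylases that make heterochromatin. The genes arose largely by tandem duplication, and many of the proteins bind and repress transposable elements. By amino acid patterns in the GENCODE 29 translations, a KRAB domain was recognised in 133 members and not in 29, and a SCAN domain in 2. The patterns are short and may miss a domain. The median number of fingers was 12.5. ZNF738 had no complete finger in its longest annotated protein, and ZNF91 had the most, with 31.

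The promoters of the pair with the largest rises (ZNF493 and ZNF616) and of the pair with the largest falls (ZNF850 and ZNF296) are shown because these genes mark the ends of the response. They are RefSeq windows of 300 bases on build GRCh38.p14, given 5′ to 3′ on the gene's strand. Capitals mark GCGTG, the core of the element that AHR binds with its partner ARNT, found on either strand (CACGC when it lies on the opposite one). The windows are chr19:21396883-21397182 on the plus strand for ZNF493, and chr19:52139889-52140188, chr19:36772758-36773057 and chr19:45076429-45076728, all on the minus strand, for ZNF616, ZNF850 and ZNF296.
ZNF493: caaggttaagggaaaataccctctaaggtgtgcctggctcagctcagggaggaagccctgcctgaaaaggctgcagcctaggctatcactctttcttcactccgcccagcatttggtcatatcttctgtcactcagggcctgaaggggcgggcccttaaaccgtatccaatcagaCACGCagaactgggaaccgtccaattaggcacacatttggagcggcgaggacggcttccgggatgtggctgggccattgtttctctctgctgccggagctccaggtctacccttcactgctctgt
ZNF616: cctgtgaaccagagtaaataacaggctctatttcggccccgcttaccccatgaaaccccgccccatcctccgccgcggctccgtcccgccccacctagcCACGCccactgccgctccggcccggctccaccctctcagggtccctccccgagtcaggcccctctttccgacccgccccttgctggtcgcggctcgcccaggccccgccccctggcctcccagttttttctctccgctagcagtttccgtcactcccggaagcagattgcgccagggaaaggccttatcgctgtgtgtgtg
ZNF850: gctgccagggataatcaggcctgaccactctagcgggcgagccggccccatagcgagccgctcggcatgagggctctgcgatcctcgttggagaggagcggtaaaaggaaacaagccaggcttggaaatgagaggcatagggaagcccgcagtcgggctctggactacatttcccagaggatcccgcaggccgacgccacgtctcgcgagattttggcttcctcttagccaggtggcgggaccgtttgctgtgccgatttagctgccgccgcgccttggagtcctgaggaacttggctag
ZNF296: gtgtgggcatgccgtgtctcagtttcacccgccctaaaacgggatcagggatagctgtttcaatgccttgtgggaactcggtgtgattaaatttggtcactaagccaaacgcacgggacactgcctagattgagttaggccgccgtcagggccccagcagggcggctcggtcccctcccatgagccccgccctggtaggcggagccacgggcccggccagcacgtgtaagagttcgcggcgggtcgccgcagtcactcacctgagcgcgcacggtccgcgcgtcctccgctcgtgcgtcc
ZNF493 and ZNF616 each held the core 1 time, and the letters were not in the windows of ZNF850 and ZNF296. Of the 162 members, 143 had an entry, with 174 windows in all, and 48.3% of those windows held GCGTG on either strand. The share was 36.5% over all 35116 windows of the table and 48.2% over the 15559 windows of tested genes. Among members it was 51.0% of 102 windows of the genes called higher, 37.5% of 8 windows of the genes called lower and 45.3% of 64 windows of the rest. A match is a description of the sequence and not a binding site.

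The libraries held 11567736 to 12937058 counts in the AHR siRNA group and 13585529 to 15037145 counts in the control siRNA group. AHR itself (ENSG00000106546.11, chromosome 7) stood at 95.8, 87.4 and 95.0 CPM (counts scaled to library size, with TMM factors for library composition) in AHR siRNA libraries, against 117, 144 and 132 CPM in control siRNA libraries, so 70.9% of the control level was retained (log2 fold change -0.50, SE 0.08, edgeR adjusted p = 1.98e-05). On the second principal component, which held 8.35% of the variance, control siRNA replicate 1 (23.2) stood apart from replicates 2 and 3 (-12.1 and -12.8). AHR siRNA replicates 1, 2 and 3 lay at 10.5, 2 and -10.8, so the values fell with replicate number in both groups. Of 12 colorectal epithelial markers, 10 exceeded 1 CPM, and the 12 together summed to 8150 to 8470 CPM with AHR siRNA and 11800 to 13300 CPM with control siRNA. CDX1 and GPA33 were the epithelial markers under 1 CPM. The 8 fibroblast markers summed to 2.13 to 3.31 CPM with AHR siRNA and 2.23 to 3.15 CPM with control siRNA, and PDGFRA, THY1, LUM and DCN were listed at 0. The 8 leukocyte markers summed to 2.07 to 2.72 CPM with AHR siRNA and 3.08 to 4.21 CPM with control siRNA and MS4A1 was listed at 0. The 6 endothelial markers summed to 6.03 to 7.05 CPM with AHR siRNA and 5.18 to 6.75 CPM with control siRNA, with KDR at 0. The part of the lower epithelial sum in the results that follow was not tested. In bulk RNA, fewer cells of a kind and less RNA per cell cannot be told apart.

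A large part of the family had few or no counts in this line. Of the 85 candidates under 60 counts, 59 held 5 or fewer counts over the 6 libraries and 35 held none. The members themselves ranged widely, with sums of 68 to 13444 counts and a median of 772. Just inside the minimum lay ZNF701 with 68 counts and ZNF559 and ZNF540 with 73 each, and just outside it ZNF615 with 51, ZNF470 with 47 and ZNF429 with 40. All 162 members also passed the expression filter of the edgeR fit. Some low members reached the minimum largely through 1 group. ZNF599 held 16, 29 and 21 counts with AHR siRNA and 9, 7 and 12 with control siRNA. ZNF154 held 14, 6 and 14 with AHR siRNA and 21, 27 and 14 with control siRNA.

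The near-silent genes lay next to each other in several places, above all among the genes of the pericentromeric short-arm cluster. Clusters were runs of C2H2 genes with no gap over 1 Mb, which gave 15 of them, 14 with members. In cluster 5, which spans chr19:19668796-24129961 (GRCh38), 14 of the 37 ZNF genes were members, and 22 of the other 23 held 5 or fewer counts. There, the 11 neighbours in the run that starts with ZNF43 and ends with ZNF730 held 3 counts in all, and the 9 neighbours that start with ZNF253 and end with ZNF85 held 5. The second of these runs holds ZNF93, a repressor of LINE-1 elements, which had 0 counts, as did ZNF85. Genes of known function in tumours were also under the minimum. ZNF331, which is often methylated in colorectal cancer, held 9 counts in all, and ZNF350 (ZBRK1), a partner of BRCA1, held 13. ZNF304, which recruits silencing factors to DNA, held 5, and ZNF382, a gene silenced by methylation in several cancers, held 1. ZNF568 held 3 counts and ZNF570 held 1.

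**Figure D1:**
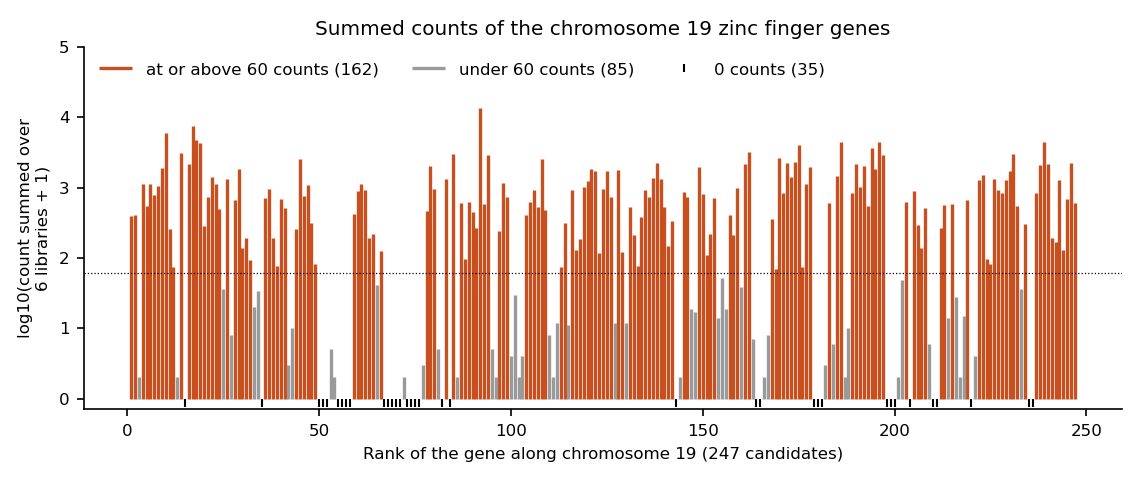
Summed counts of the 247 chromosome 19 zinc finger candidates over the 6 libraries, as log10 of the sum plus 1, by rank along the chromosome. Orange bars are the 162 members, grey bars the 85 candidates under 60 counts, black ticks the 35 candidates with 0 counts, and the dotted line is the minimum. The ticks lie closest together among the genes of cluster 5.

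After AHR knockdown the family moved mostly upward. In the edgeR fit over 14900 tested genes, 93 of the 162 members were called higher and 9 lower at an adjusted p under 0.05, and 60 were not called. Over all tested genes, 30% were called higher and 30.1% lower, so the members' shares of 57.4% higher and 5.56% lower stand beside an almost even background. The median log2 fold change was 0.43 over the members and 0.01 over all tested genes, and the interquartile range of the members was 0.15 to 0.79. The log2 fold change was above 0 in 141 members. All AHR siRNA libraries lay above all control siRNA libraries in 96 members and below them in 12, against 32.0% and 31.7% of all tested genes.

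The size of the change was modest for most members and large for a few. The unrounded log2 fold change reached 1 or more in 20 of the called members, with ZNF91 (1.0 after rounding) just under, and -1 or less in 0. With edgeR's glmTreat, which asks for a change beyond 1.5-fold, 30 members were higher and 3 lower, and the same test called 8.83% of all genes higher and 8.03% lower. Because the family was put forward with results of these libraries known, its counts describe the data and are not independent evidence of a direction.

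The rise could be seen in each library as a whole. The members took 0.302%, 0.294% and 0.302% of all counts in AHR siRNA libraries, against 0.195%, 0.211% and 0.207% in control siRNA libraries. Summed over members, the level was 2892, 2793 and 2859 CPM with AHR siRNA and 2109, 2189 and 2167 CPM with control siRNA. The groups did not overlap, and the libraries within each group were close together. Of the 162 members, 117 to 128 lay above their own 6-library mean in each AHR siRNA library, and 25 to 36 in each control siRNA library. Members had a median transcript GC content of 43.1%, against 48.6% over all tested genes, and with GC and length trends removed 96 were called higher and 11 lower, with a median log2 fold change of 0.44. Without control siRNA replicate 1, 85 members were called higher and 9 lower and the median was 0.38. The same fit called 29.2% of all tested genes higher and 29.5% lower.

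**Figure D2:**
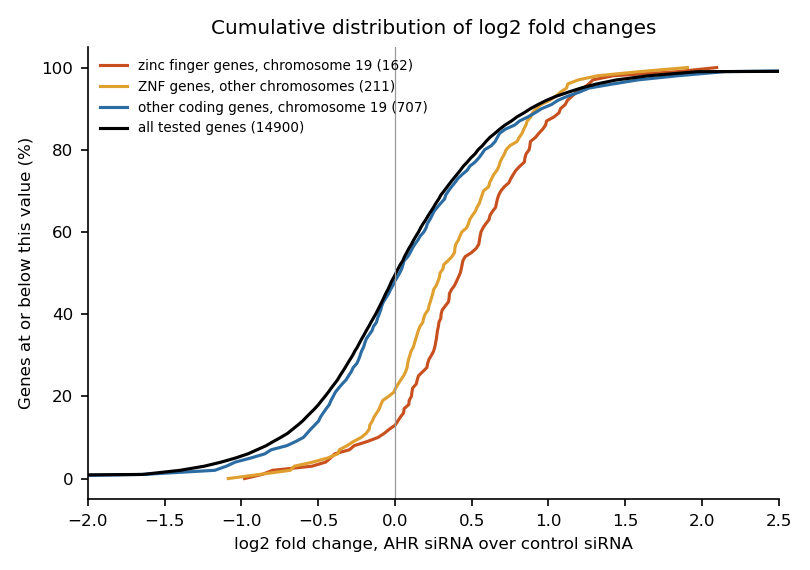
Cumulative distribution of the log2 fold change, AHR siRNA over control siRNA, with the percentage of genes at or below each value on the vertical axis. The curve of the 162 members crosses 50% at 0.43 and that of all 14900 tested genes at 0.01, and the 211 ZNF genes of other chromosomes (0.29) lie between them.

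Other genes of the chromosome had a median near 0. The 707 other tested coding genes of chromosome 19 had a median log2 fold change of 0.03, with 34.7% called higher and 28.9% lower. ZNF genes of other chromosomes had a median of 0.29, with 111 of 211 called higher and 17 lower. The difference between these sets was not tested.

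The 12 largest rises came from genes at very different levels. ZNF493, a KRAB gene with 18 fingers in cluster 5, stood at 4.80, 4.12 and 4.70 CPM in AHR siRNA libraries, against 1.20, 0.966 and 1.0 CPM in control siRNA libraries. That is a 4.30-fold higher mean (log2 fold change 2.10, SE 0.23, edgeR adjusted p = 3.21e-07), with a wide gap between the groups. ZNF616, a KRAB gene with 21 fingers at chr19:52113091-52139922, stood at 18.2, 21.1 and 21.1 CPM with AHR siRNA, against 4.95, 4.83 and 4.54 CPM with control siRNA. Its log2 fold change was 2.08 (SE 0.13, edgeR adjusted p = 7.72e-11), and its groups too were far apart. Its neighbour ZNF841, whose protein is 71.4% identical, averaged 2.75 ± 0.480 CPM with AHR siRNA and 2.49 ± 0.416 CPM with control siRNA (SD, n = 3 each; edgeR adjusted p = 0.627).

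Next came ZNF132, at 2.57, 2.57 and 2.28 CPM in AHR siRNA libraries and 0.450, 0.828 and 1.0 CPM in control siRNA libraries (log2 fold change 1.69). ZNF490, ZNF546 and ZNF599 followed with log2 fold changes of 1.44, 1.36 and 1.28, each under 5 CPM in every library. ZNF599 rests on few reads, with 1.33, 2.13 and 1.54 CPM against 0.675, 0.483 and 0.923 CPM. The AHR siRNA libraries held most of the counts that brought it over the minimum. Better covered were ZNF254 (1.27), ZNF71 (1.26) and ZNF426 (1.23). ZNF426, a KRAB protein known to bind the reactivation factor of a herpesvirus, stood at 40.4, 36.8 and 39.0 CPM with AHR siRNA and 16.1, 16.8 and 16.6 CPM with control siRNA. ZNF875, long known as HKR1, stood at 48.3, 42.4 and 42.7 CPM with AHR siRNA and 19.8, 20.1 and 19.0 CPM with control siRNA, a 2.27-fold difference. ZNF837 (1.19) and ZNF845 (1.16) closed the 12, and the groups of these 12 genes did not overlap, as the naming rule required.

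**Figure D3:**
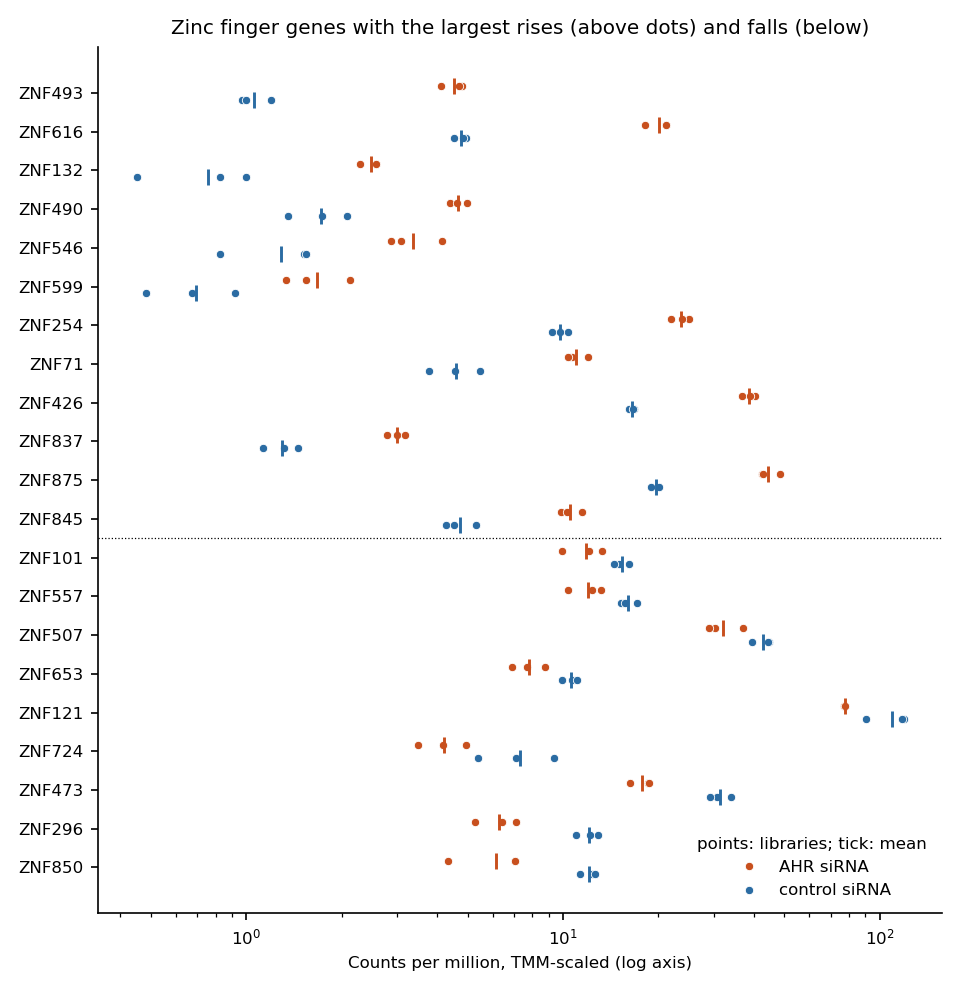
TMM-scaled CPM (log axis) of the 12 members with the largest rises, above the dotted line, and the 9 members called lower, below it. Points are libraries, ticks are means, orange is AHR siRNA and blue is control siRNA; ZNF493 and ZNF616 show the widest gaps, and the groups of these 21 genes do not overlap.

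The 9 members called lower were spread over 7 clusters. ZNF850, a KRAB gene with 29 fingers, fell to 7.04, 4.34 and 7.05 CPM in AHR siRNA libraries, against 11.3, 12.3 and 12.6 CPM in control siRNA libraries (log2 fold change -0.98, SE 0.16, edgeR adjusted p = 2.77e-05). ZNF296 had no recognised KRAB domain, and its mouse counterpart promotes reprogramming to pluripotency. ZNF296 stood at 7.12, 6.4 and 5.29 CPM with AHR siRNA and 12.9, 11 and 12.2 CPM with control siRNA (log2 fold change -0.95). The AHR siRNA means of ZNF850 and ZNF296 were 50.9% and 52.0% of their control means, and the groups did not overlap.

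ZNF473 is unlike its relatives in role: it belongs to the U7 snRNP machinery that forms the ends of histone transcripts. It stood at 18.5, 16.3 and 18.7 CPM with AHR siRNA and 30.6, 33.9 and 29.2 CPM with control siRNA (log2 fold change -0.81, SE 0.10, edgeR adjusted p = 5.72e-07). Its exons overlap those of VRK3 on the opposite strand, so without a stated strand the reads of the pair cannot be told apart. ZNF724 had a log2 fold change of -0.79 and ZNF121 of -0.49. ZNF121 was the most abundant of the 9, at 77.8, 77.4 and 77.9 CPM with AHR siRNA and 90.5, 119 and 118 CPM with control siRNA. The smallest falls were those of ZNF653 (-0.45), ZNF507 (-0.42), ZNF557 (-0.42) and ZNF101 (-0.38). With libraries scaled by their totals alone, ZNF653, ZNF557 and ZNF101 were no longer called, at edgeR adjusted p of 0.0588, 0.0532 and 0.108, and ZNF101 was also lost without AHR siRNA replicate 3 (0.0854). Of the 9, 4 had no recognised KRAB domain (ZNF296, ZNF121, ZNF653 and ZNF507), as had 29 of the 162 members.

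Members with a described function moved unevenly. ZNF91, which represses SVA retrotransposons, stood at 34.5, 32.7 and 36.2 CPM in AHR siRNA libraries, against 15.7, 17.6 and 18.4 CPM in control siRNA libraries, a 2.0-fold difference (log2 fold change 1.0, SE 0.09, edgeR adjusted p = 2.27e-08). ZNF160, a TRIM28-dependent repressor of TLR4 in intestinal epithelial cells, stood at 31.6, 31.7 and 37.5 CPM with AHR siRNA and 15.6, 16.6 and 15.5 CPM with control siRNA (log2 fold change 1.08). Neither gene's groups overlapped. ZNF675 (TIZ), an inhibitor of TRAF6 signalling, rose with a log2 fold change of 0.94, and ZNF224, a repressor of the aldolase A gene, with 0.55.

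ZNF274, which brings SETDB1 to the coding ends of zinc finger genes themselves, stood at 30.4, 27.9 and 26.9 CPM with AHR siRNA and 22.3, 23.1 and 25 CPM with control siRNA (log2 fold change 0.27, edgeR adjusted p = 0.0130). That call did not hold without AHR siRNA replicate 1 (edgeR adjusted p = 0.0616) or after removal of GC and length trends (0.0637). ZNF264 had a log2 fold change of 0.35 (edgeR adjusted p = 0.0233) with overlapping groups, and lost its call without AHR siRNA replicate 2 (0.0875), without AHR siRNA replicate 3 (0.117), without control siRNA replicate 2 (0.0914) and with DESeq2 (0.0575). ZNF180 and ZNF649, a repressor of AP-1 and serum response element reporters, had log2 fold changes of 0.09 and 0.15 and were not called (edgeR adjusted p = 0.520 and 0.589).

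The most abundant members moved in different ways. The most abundant member was ZNF146 (OZF), a protein of fingers alone that is overexpressed in several carcinomas. It stood at 185, 173 and 166 CPM in AHR siRNA libraries and 164, 159 and 163 CPM in control siRNA libraries, with a log2 fold change of 0.11 (edgeR adjusted p = 0.164). The groups did not overlap, though by a narrow margin, and the gene overlaps ZNF565 on the opposite strand. Its call depends on scale: it passed with upper-quartile factors (edgeR adjusted p = 0.0199) with library totals (0.00214) and after removal of GC and length trends (0.0149). The next in mean CPM were ZNF121, which fell, and ZNF317, at 95.0, 95.3 and 96.9 CPM with AHR siRNA against 59.9, 52.1 and 55.7 CPM with control siRNA (ZNF317 log2 fold change 0.78). ZNF561 (0.68) and ZNF544 (0.56) were also called higher. ZNF787, second of the members in CPM per kilobase of transcript, had a log2 fold change of -0.07 (edgeR adjusted p = 0.427); after removal of GC and length trends it was -0.37 and called (2.7e-05).

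Split by control level into 3 sets of 54 members, 28, 28 and 37 were called higher from the lowest to the highest set. The medians of the log2 fold change were 0.58, 0.30 and 0.41 from the lowest to the highest set. Spearman's rho of the log2 fold change with the control level was -0.19 over the 162 members. It was -0.03 with transcript GC content, 0.11 with transcript length and 0.08 with the number of fingers. These values describe genes of the same 6 libraries and carry no test. The control level is also the denominator of the fold change, so the split and the rho that use it are not independent of the change.

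Members with and without a recognised KRAB domain were called higher at shares of 57.9% and 55.2%, and the difference was not tested. Of the 133 members with the domain, 77 were called higher and 5 lower, with a median log2 fold change of 0.44. Of the 29 without it, 16 were called higher and 4 lower, with a median of 0.30. ZNF579, without a recognised KRAB domain, was at 32.5, 38.5 and 36.4 CPM in AHR siRNA libraries and 18.3, 17.4 and 19.0 CPM in control siRNA libraries, and had the smallest p of cluster 15.

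Rises were found in most clusters, but the clusters did not move as blocks. In cluster 15, at the tip of the long arm (chr19:55476332-58573575), 29 of 41 members were called higher and 0 lower, with a median log2 fold change of 0.39. In cluster 14 (chr19:51571298-53580269), 16 of 23 were called higher and 0 lower, with a median of 0.53. Of the other clusters with 5 or more members, cluster 11 had 11 higher and 1 lower of 20, and cluster 5 had 9 and 2 of 14. Clusters 2 and 8 each had 7 higher, with 2 lower of 13 and 1 lower of 17, and cluster 3 had 7 higher and 1 lower of 18. The lowest and the highest log2 fold changes within cluster 14 were -0.46 (ZNF577, not called) and 2.08 (ZNF616), and those within cluster 15 were -0.80 (ZNF154, not called, edgeR adjusted p = 0.0648) and 1.69 (ZNF132).

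The genes named for their clusters had the smallest p there. In the larger clusters these included ZNF627 in cluster 3 (log2 fold change 1.12) and ZNF227 in cluster 11 (0.97). In the small clusters they were ZNF554 in cluster 1 (1.05), ZNF181 in cluster 7 (0.55) and ZNF780B in cluster 9 (0.88), with ZNF333 in cluster 4 (0.28, edgeR adjusted p = 0.146) and ZNF526 in cluster 10 (-0.14, edgeR adjusted p = 0.212) not called. After removal of GC and length trends ZNF526 passed (-0.28, edgeR adjusted p = 0.00801). ZNF333 passed when control siRNA replicate 2 was left out (0.51, at an edgeR adjusted p of 0.0120), with library totals alone (0.43, adjusted p 0.0443) and with GC and length trends removed in a fit with a replicate block (0.28, adjusted p 0.0454).

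Next-door genes could differ in sign. Across 148 pairs of neighbouring members in the same cluster, both were called higher in 55 pairs, and 1 was higher and the other lower in 7. Over all members 57.4% were called higher and 5.56% lower. Whether neighbours differ from unrelated pairs in these counts was not tested. ZNF121 (-0.49) lies 21707 bases from ZNF426 (1.23) on one side and 20146 bases from ZNF561 (0.68) on the other. ZNF724 (-0.79) lies 54600 bases from ZNF91 (1.0). ZNF850 (-0.98) overlaps the span of ZNF567 (0.40). Spearman's rho between the log2 fold changes of neighbours was 0.01.

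**Figure D4:**
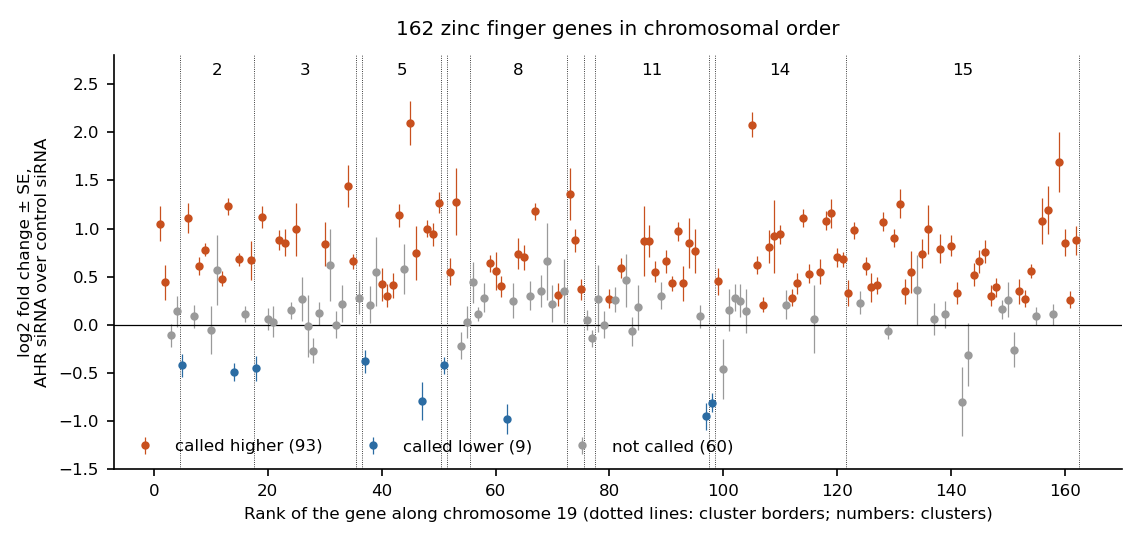
Log2 fold change with its standard error for the 162 members, by rank along chromosome 19. Orange marks the 93 members called higher, blue the 9 called lower and grey the 60 not called; dotted lines are cluster borders, and numbers name the clusters with 5 or more members. No blue points lie in clusters 14 and 15.

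Close relatives gave a further view of how members vary. The proteins of 34 members were at least 80% identical to another chromosome 19 zinc finger protein, and reads of such genes may have been split or lost, since the treatment of multi-mapping reads is not given in the sources. Of these 34, 25 were called higher and 0 lower, with a median log2 fold change of 0.62. Without them, 68 of 128 members were called higher and 9 lower, and the median was 0.41. There were 11 pairs of members that were each other's nearest protein at this identity: both partners were called higher in 6, 1 of them in 3 and neither in 2.

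The paired genes ZNF585A and ZNF585B, 94.5% identical, had log2 fold changes of 0.74 and 0.70. ZNF417 and ZNF587, 98.1% identical, had 0.26 and 0.16, neither called. ZNF561 and ZNF562 are 84.3% identical neighbours that stood apart. ZNF561 was at 75.7, 69.4 and 73.6 CPM with AHR siRNA and 44.3, 47.2 and 45.1 CPM with control siRNA. ZNF562 was at 58.6, 53.2 and 58.5 CPM with AHR siRNA and 48.5, 53.8 and 55.2 CPM with control siRNA, with overlapping groups (log2 fold change 0.11, edgeR adjusted p = 0.224). ZNF69 and ZNF700 differed in the same way, at 0.85 (called) and 0.15 (edgeR adjusted p = 0.167), and the difference within these pairs was not tested. Exons of 40 members overlap another gene with at least 60 counts, and 22 of these were called higher and 2 lower.

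The members nearest the count minimum were poorly resolved. ZNF701 stood at 1.49, 0.809 and 1.10 CPM with AHR siRNA and 0.450, 0.690 and 0.615 CPM with control siRNA (edgeR adjusted p = 0.0435). Its call was lost in 8 of 15 refits at an adjusted p under 0.05, among them 5 that left out 1 library. These left out AHR siRNA replicate 1 or 3, or control siRNA replicate 1, 2 or 3, with edgeR adjusted p of 0.0609 to 0.177. ZNF559 and ZNF540 were not called, with log2 fold changes of 0.57 (SE 0.36) and 0.66 (SE 0.40). ZNF540 passed when control siRNA replicate 2 was left out (1.27, at an edgeR adjusted p of 0.0274).

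Among genes of the KRAB co-repressors and of heterochromatin, some rose, some fell and 15 were not called. Of 35 co-repressor and heterochromatin genes, 8 were called higher and 12 lower, against 30% and 30.1% of all tested genes, and their median log2 fold change was -0.09. TRIM28, the scaffold that KRAB domains bind, stood at 479, 511 and 489 CPM in AHR siRNA libraries and 700, 628 and 637 CPM in control siRNA libraries, or 75.3% of the control mean (log2 fold change -0.41, SE 0.07, edgeR adjusted p = 3.77e-05). SETDB1, the histone methyltransferase it recruits, stood at 61.2, 59.6 and 60.4 CPM with AHR siRNA and 42.2, 47.3 and 43.0 CPM with control siRNA (log2 fold change 0.45, edgeR adjusted p = 3.28e-05). Neither gene's groups overlapped.

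The largest falls in the list were in the histone methyltransferase SUV39H1 and in the DNA methylation pair UHRF1 and DNMT1. SUV39H1 was at 15.2, 16.5 and 15.8 CPM with AHR siRNA and 41.0, 34.5 and 37.4 CPM with control siRNA (log2 fold change -1.25). DNMT1, the maintenance methyltransferase, was at 195, 202 and 226 CPM with AHR siRNA and 380, 422 and 441 CPM with control siRNA (log2 fold change -0.99), and UHRF1, which guides it to replicated DNA, had a log2 fold change of -1.07. The groups of these genes lay far apart. HP1 proteins split: CBX5 (HP1 alpha) and CBX3 (HP1 gamma) fell, with log2 fold changes of -0.67 and -0.46, and CBX1 (HP1 beta) had -0.03 and was not called (edgeR adjusted p = 0.715).

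Among the NuRD deacetylase complex, CHD4 (-0.11) and HDAC2 (-0.13) were not called. RBBP4 (-0.81), MTA2 (-0.39) and RBBP7 (-0.38) of the complex fell, and MTA1 (0.86), CHD3 (0.30) and HDAC1 (0.27) rose. The SUMO modifier gene SUMO2 (-0.34) and the chromatin ATPase gene MORC2 (-0.27) also fell. The histone demethylase KDM4A (0.64), the chromatin remodellers ATRX (0.45) and SMARCAD1 (0.40) and the methyltransferase EHMT1 (0.29) rose. The part that any of these genes has in the zinc finger genes' values was not tested.

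**Figure D5:**
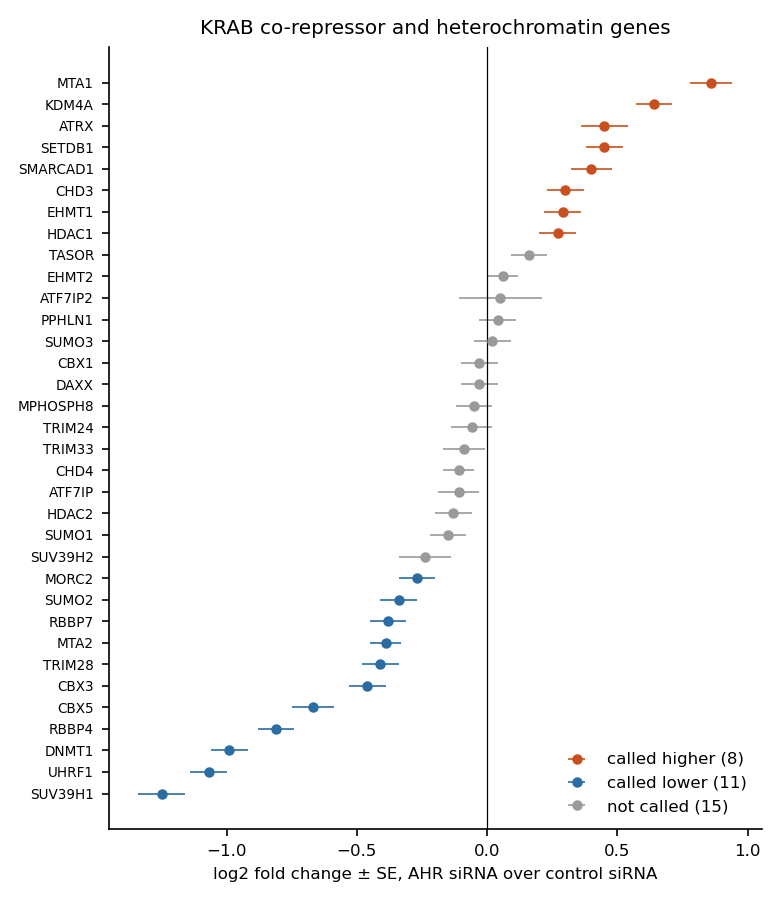
Log2 fold change with its standard error, AHR siRNA over control siRNA, of 34 of the 35 co-repressor and heterochromatin genes, from the highest (MTA1, 0.86) at the top to the lowest (SUV39H1, -1.25) at the bottom. Orange marks the 8 genes called higher, blue 11 of the 12 called lower and grey the 15 not called.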

How the data were processed

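The authors deposited whole-number read counts per versioned Ensembl gene ID for each library. Tools named in the submitters' processing notes are HTSeq and TopHat2 2.0.11, with builds hg19 and GRCh37; some IDs belong to later annotations, so the files' build is uncertain. Coordinates, biotypes, transcripts and proteins came from GENCODE 29 (GRCh38), matched by ID, with current symbols, and promoters from RefSeq (GRCh38.p14).

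Samples were grouped by title. Counts were tested with edgeR 4.0.16 in R 4.3.3 (filterByExpr, TMM scaling, glmQLFit and glmQLFTest, group as only term), with Benjamini-Hochberg adjustment over 14900 genes. CPM are TMM-scaled. The SE is the absolute log2 fold change over the square root of F. The procedure was tested on simulated data. Alternatives used DESeq2 1.42.0 and limma-voom 3.58.1, other scalings, filters and thresholds, each library left out, a replicate block, and GC and length trends removed by loess (span 0.4).

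KRAB and SCAN domains and fingers were found by amino acid patterns, and protein identity by pairwise alignment in Biopython 1.88. The text names the 12 largest rises and falls among members that were called with no overlap between groups, the 6 with the highest mean CPM, members of a list with known roles, the smallest p of each cluster, and 3 genes on each side of the count minimum. Called co-repressor genes are named too, except 1 that is not reported here. ZNF841, ZNF562, ZNF577, ZNF154 and the other genes given as neighbours or relatives were chosen after their values were seen. The members and lists were chosen with earlier results of these data known. Precision rests on 3 libraries per group, of 11567736 to 15037145 counts each.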

Additional observations from a re-analysis of the deposited data

How the results depend on the processing

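The direction of the family's shift was the same under the alternatives tried. Its median log2 fold change was 0.43, and it was 0.50 with upper-quartile factors and 0.57 with library totals alone, where the median of all tested genes was itself 0.15 in place of 0.01. With library totals 39.5% of all tested genes were called higher and 21.5% lower, and 109 members higher and 6 lower. Asking for a change beyond 1.5-fold left 30 members higher and 3 lower. DESeq2 called 76 members higher and 9 lower, against 26.3% and 27.9% of all tested genes, and limma-voom 92 and 9, against 30.1% and 29.9%. With GC and length trends removed, 96 members were higher and 11 lower, against 29% and 34.4% of all tested genes, whose median was then -0.04.

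Leaving out 1 library at a time gave 77 to 85 members higher, 8 to 10 lower and medians of 0.38 to 0.45. Of all tested genes, 26.1% to 29.2% were then called higher and 26.7% to 29.5% lower. In the same refits the 35 co-repressor genes had 8 to 9 higher and 12 to 15 lower, and the log2 fold change of AHR was -0.58 to -0.43. Deviations of same-numbered libraries correlated at 0.193, -0.0405 and 0.154, and those of differently numbered libraries at -0.263 to 0.16. With only 3 libraries per group, these values cannot decide whether the numbers pair the libraries. A replicate block gave 94 members higher, 9 lower and a median of 0.42, with 9 co-repressor genes higher and 15 lower. Of all tested genes, the block called 32.1% higher and 32.3% lower. For the named members, 16 refits were compared at an adjusted p under 0.05. The 1.5-fold test and a stricter threshold were not among them. Of the 37 named members that were called, 31 kept the call in every refit that gave a value for them. The exceptions were ZNF701, ZNF264, ZNF274, ZNF101, ZNF557 and ZNF653.

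Members with few counts limit what can be read: standard errors of the log2 fold change ran from 0.07 to 0.40, and genes with near-identical relatives or overlapping exons are uncertain in level.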

Other observations

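Zinc finger genes of chromosome 19 that carry other names were also measured. Of 8 such C2H2 genes with at least 4 fingers and 60 counts, 5 were called higher and 0 lower in the edgeR fit, against 30% and 30.1% of all tested genes. ZFP14, a KRAB gene, averaged 7.97 CPM with AHR siRNA and 4.15 CPM with control siRNA (log2 fold change 0.93, SE 0.17, edgeR adjusted p = 1.15e-04). ZBTB45, a BTB domain protein, averaged 75 CPM with AHR siRNA and 40.3 CPM with control siRNA (log2 fold change 0.90). The SCAN gene ZSCAN5A (0.71), the myeloid zinc finger gene MZF1 (0.56) and FIZ1 (0.33) were the other genes called higher. ZFP30 (0.23) and ZSCAN22 (0.02) were not called, nor was WIZ, a partner of the methyltransferases EHMT1 and EHMT2, which averaged 92.3 CPM with AHR siRNA and 103 CPM with control siRNA (edgeR adjusted p = 0.0981).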
